A study of Oryza sativa with 6 samples.

Results

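Beta-glucosidases of rice were followed across drought in the leaves of 2 genotypes. The members are the probes with 1 annotated gene whose gene carries a synonym of BGLU and a number in the gene table. By this rule 31 rice genes qualify, and 25 of them had a probe, out of 15798 genes measured by such probes. They had 35 probes in all among the 22575 spots of the array. BGLU1 and 7 other genes had several probes, and 17 had 1. BGLU2, BGLU4, BGLU6, BGLU20, BGLU21 and BGLU24 had no probe under this annotation. The number of a gene follows its systematic name, so that BGLU26 is Os7bglu26; BGLU7 also carries the synonym BGLU1, which is used here for Os1bglu1 alone.

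Enzymes of this family remove glucose, and in some cases other sugars, from small beta-linked glycosides. Plants keep hormones, phenolic acids, monolignols and defence compounds as inactive glucosides, often in the vacuole, and a beta-glucosidase releases the free compound when it meets its substrate. Others act on short sugar chains from the cell wall, and some transfer the sugar to another acceptor instead of water. In Arabidopsis leaves under water deficit, a member of the family is known to free abscisic acid from its glucose ester.

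The genotype Apo is described by the submitters as tolerant of drought and IR64 as susceptible. Both were grown in a greenhouse, and water was withheld from 33 days after sowing, for 5 days by the sample labels and 6 days by the series text. Well-watered controls were harvested 37 days after sowing, so the harvest ages of stressed and control leaves may differ. Each genotype had 3 Agilent arrays of 2 colours, each pairing control leaf RNA in Cy5 with stressed leaf RNA in Cy3 and none with exchanged dyes, so a dye effect would stay in each ratio. The labels do not say whether replicates are separate plants, and the spread that p-values rest on may therefore be technical, between these samples alone.

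Values are deposited log ratios, taken as log10 because the software named by the submitters writes that base. Their direction is not settled. With the labelled dyes that software's ratio would be control over stressed, so that positive would be higher in watered leaves. The dehydrins, which are known to accumulate in leaves that lose water, were however positive in both genotypes, for example RAB16C with a mean of 1.72 ± 0.107 in Apo and 1.43 ± 0.210 in IR64 (± SD, n = 3 arrays, as throughout). The dehydrin rab25 averaged 1.15 ± 0.0757 and 0.851 ± 0.174. RAB16B, RAB16D and Dhn1 were positive past the threshold too, between 0.685 and 1.48 over both genotypes. Ratios are therefore given as positive or negative, and a positive beta-glucosidase lies on the side of the dehydrins. Of the leaf markers, CAB2R and RCABP69 of the light-harvesting complex were negative in both genotypes, and CAB1R did not pass the threshold in either. Fewer cells of a type and less RNA per cell cannot be told apart in whole leaves, and, with no channel intensities used, the height of a probe over background is not known.

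The array of IR64 replicate 1 stood apart from its group. Its correlation over tested probes with each Apo array was between 0.832 and 0.894, and with its fellow IR64 arrays it was 0.755 and 0.767. Over the 35 beta-glucosidase probes the same values were 0.731 to 0.85 and 0.647 and 0.685. Values without this array are given where a call changes with it, and for some means. Other IR64 means moved too, for example that of BGLU30 from 0.488 to 0.565 and that of the first BGLU28 probe from -0.381 to -0.306. Exact zeros were most frequent on the array of Apo replicate 2, with 2015 spots against 595 to 1304 on the others, and 4 beta-glucosidase probes, those of BGLU9, BGLU33, BGLU34 and BGLU38, read exactly 0 on at least 1 array.

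The first question was which beta-glucosidases differed between stressed and watered leaves within each genotype. BGLU26 and BGLU30 were strongly positive in both, and BGLU1, BGLU5 and BGLU32 were positive with smaller ratios. BGLU19, BGLU28 and BGLU31 were negative in both. The family therefore held members on both sides, and its median ratio was near 0, at 0.0107 in Apo and 0.00782 in IR64, against -0.00318 and 0 over all 17727 tested probes.

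All 35 probes were tested, and none was at 0 on every array. In Apo 16 of them passed limma's test at an adjusted p of 0.05, 9 positive and 7 negative, which is 45.7% of the members against 50.1% of all probes. Taken by side, 25.7% of members were positive against 24.5% of all probes, and 20% negative against 25.6%. In IR64 15 passed, 8 positive and 7 negative, or 42.9% against 43% of all probes, with 22.9% positive against 22.7% and 20% negative against 20.2%. These shares lie near those of the whole array. With a minimum of 2-fold, if the base is 10, 31.4% of members passed in Apo against 23.6% of all probes, and 22.9% in IR64 against 17.7%. The median size of the ratio, whatever its sign, was 0.174 for members in Apo against 0.141 for all probes, and 0.166 against 0.121 in IR64.

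**Figure D1:**
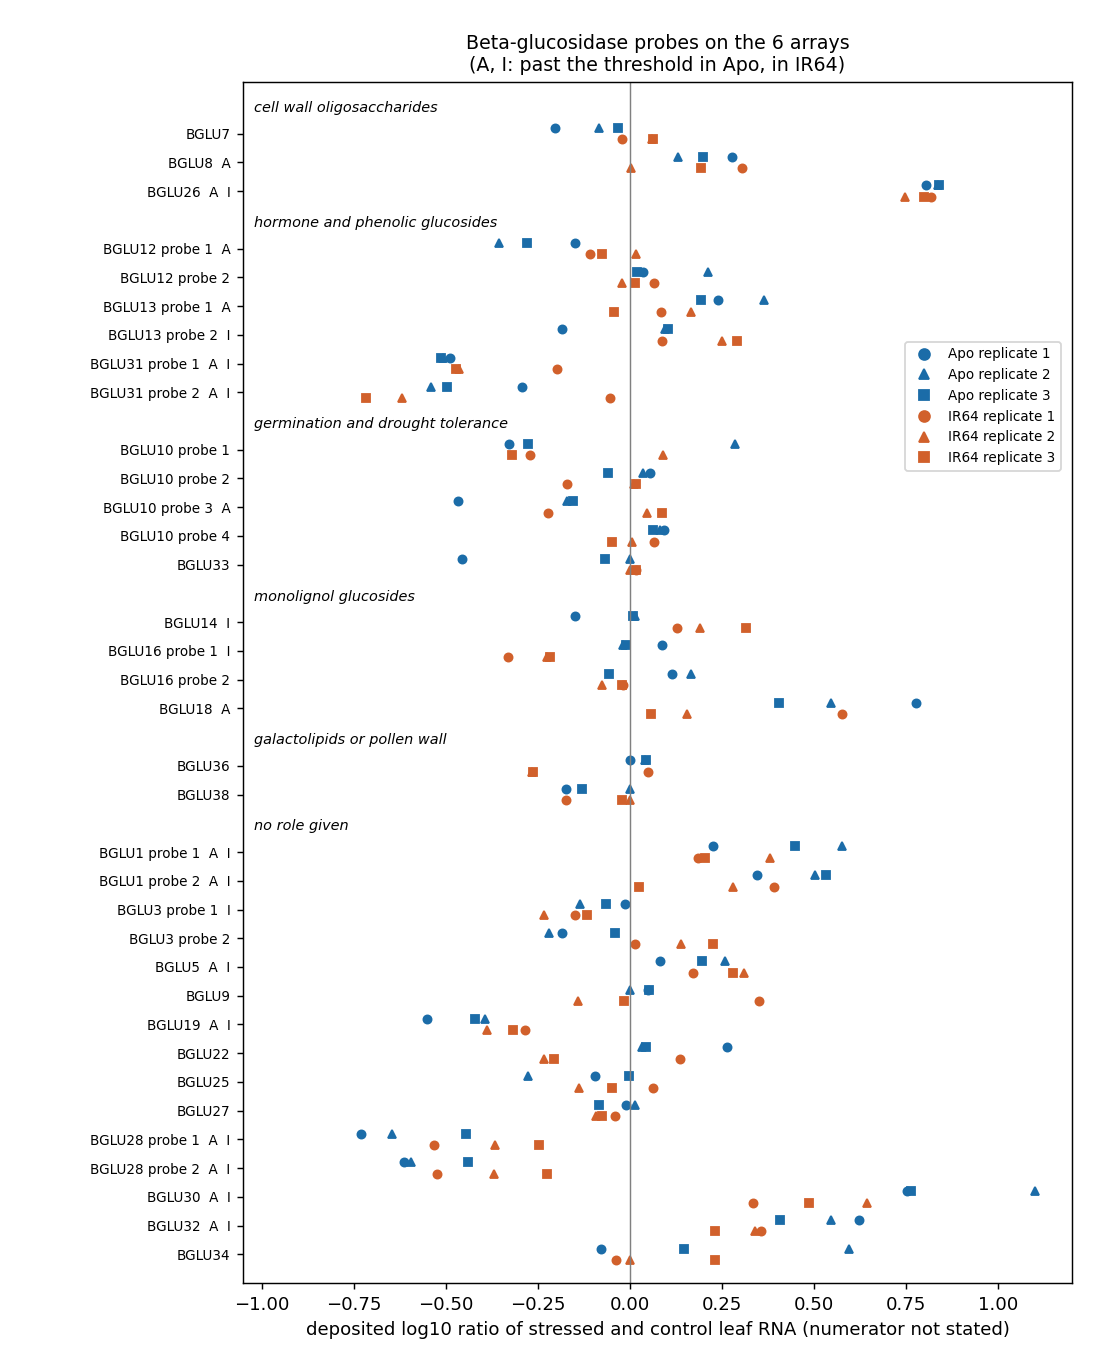
Deposited log10 ratio of each of the 35 beta-glucosidase probes (rows, grouped by known role) on each array, with Apo in blue and IR64 in orange and a symbol for each replicate; A and I mark probes past the threshold in Apo and in IR64. BGLU26 lies between 0.746 and 0.839 on all 6 arrays, while BGLU28 and BGLU31 lie left of 0 on all of them.

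Among enzymes that act on cell wall sugars, BGLU26, which also cleaves mannosides in rice, had the largest ratio of the family in IR64 and little spread between arrays. It read 0.804, 0.836 and 0.839 on the Apo arrays of replicates 1, 2 and 3 and 0.818, 0.746 and 0.798 on the IR64 arrays. All 6 values lay close together and the genotypes overlapped. The mean was 0.827 ± 0.0192 in Apo (SE 0.0292, limma adjusted p = 1.14e-05) and 0.787 ± 0.0372 in IR64 (adjusted p = 1.59e-05), a ratio of 6.71 and 6.13 if the base is 10. In Apo 96.4% of all probes, and in IR64 97.8%, had a smaller ratio in size. The difference between the genotypes was 0.0393, with a 95% interval from -0.06 to 0.139.

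BGLU7, which releases glucose from short cell wall oligosaccharides, and BGLU8, its close relative and chromosomal neighbour, had smaller ratios than BGLU26. BGLU8 was positive on every array, as BGLU26 was, and BGLU7 was not. BGLU8 read 0.277, 0.131 and 0.198 in Apo and 0.304, 0.0038 and 0.194 in IR64, so that its genotypes overlapped. Its Apo mean of 0.202 ± 0.0731 passed (limma adjusted p = 0.0297) and its IR64 mean of 0.167 ± 0.152 did not (0.0634). The Apo call ended without Apo replicate 1 (0.15), Apo replicate 2 (0.0566), Apo replicate 3 (0.102) or IR64 replicate 3 (0.0528). In IR64 BGLU8 passed without IR64 replicate 2 (0.0218) and in the fit with replicate number as block (0.0181), whereas without IR64 replicate 1 its mean was 0.0987 (0.22). BGLU7 stood at -0.107 ± 0.0877 in Apo and 0.0336 ± 0.048 in IR64, neither past the threshold, although Apo passed with the replicate block (0.0286). Without IR64 replicate 1 the IR64 mean of BGLU7 was 0.0612.

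Enzymes that act on hormone and phenolic glucosides were mixed. BGLU31, a rice transglucosidase that moves glucose between phenolic acids, hormones and flavonoids, was negative on both of its probes. The first read -0.487, -0.508 and -0.514 in Apo and -0.197, -0.464 and -0.473 in IR64, where replicate 1 stood apart and no IR64 array reached the Apo values. The second read -0.292, -0.541 and -0.497 in Apo and -0.0539, -0.619 and -0.716 in IR64, with replicate 1 nearest to 0 in both genotypes. Means were -0.503 ± 0.014 and -0.444 ± 0.133 in Apo (SE 0.0568 and 0.125, limma adjusted p = 0.000583 and 0.0245) and -0.378 ± 0.157 and -0.463 ± 0.357 in IR64 (0.00252 and 0.0248). Without IR64 replicate 1 the IR64 means were -0.468 and -0.667. Calls of the second probe ended without Apo replicate 1 (0.0596), 2 (0.111) or 3 (0.101) for Apo, and without IR64 replicate 2 (0.132) or 3 (0.128) for IR64. The Apo call also ended with quantile normalization (0.0607) and the IR64 call with each genotype fitted alone (0.0936), whereas the first probe kept its calls.

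BGLU12 and BGLU13, neighbours on chromosome 4 that hydrolyse tuberonic acid glucoside, a conjugate of the jasmonate pathway, gave different results from their different probes. The first BGLU12 probe read -0.150, -0.354 and -0.278 in Apo against -0.108, 0.016 and -0.0744 in IR64, with no overlap between the genotypes. Its Apo mean of -0.261 ± 0.103 passed (limma adjusted p = 0.0041) and its IR64 mean of -0.0555 ± 0.0642 did not, being -0.0292 without IR64 replicate 1. The second BGLU12 probe was not past the threshold in either genotype, at 0.0891 ± 0.107 and 0.0194 ± 0.0432.

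For BGLU13 the first probe read 0.240, 0.363 and 0.194 in Apo and 0.0843, 0.167 and -0.0422 in IR64, all IR64 values lying below those of Apo. It passed in Apo, at 0.266 ± 0.0872 (limma adjusted p = 0.00538), and not in IR64, at 0.0697 ± 0.105. On the second probe the order was the other way, with -0.183, 0.0954 and 0.104 in Apo and 0.0883, 0.249 and 0.290 in IR64, where the genotypes overlapped. That probe was at 0.00526 ± 0.163 in Apo and passed in IR64 at 0.209 ± 0.107 (0.0458). The IR64 call of the second probe ended without Apo replicate 2 (0.0584), Apo replicate 3 (0.0625), IR64 replicate 2 (0.178) or IR64 replicate 3 (0.197), and with all spots in the fit (0.0687) or each genotype fitted alone (0.0552). With its probes averaged before the fit, BGLU13 passed in both genotypes, at 0.136 in Apo (limma adjusted p = 0.0453) and 0.139 in IR64 (0.0469).

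BGLU10 and BGLU33 have been linked in rice genetics to seed germination and drought tolerance. Of the 4 BGLU10 probes only the third passed, in Apo alone, with -0.467, -0.171 and -0.154 there and -0.222, 0.0457 and 0.0864 in IR64. Replicate 1 was the lowest array of both genotypes on that probe. Its Apo mean was -0.264 ± 0.176 (limma adjusted p = 0.0351), and the call ended without Apo replicate 1, where the mean became -0.162 (0.175), without Apo replicates 2 (0.0656) or 3 (0.0572), and without IR64 replicate 2 (0.0562). It also ended with all spots in the fit (0.058) and with each genotype fitted alone (0.0576). In IR64 the third probe stood at -0.0298 ± 0.167, and at 0.0661 without IR64 replicate 1. The other BGLU10 probes lay between -0.107 and 0.0788 in Apo and between -0.167 and 0.00782 in IR64. Of these the first passed in IR64 with the replicate block (0.0361), and the fourth in Apo without IR64 replicate 1 (0.0292) and with each genotype fitted alone (0.0447). BGLU33 read -0.455, 0 and -0.068 in Apo and 0.016, 0 and 0.0163 in IR64, so 1 array set its Apo mean of -0.174 ± 0.246.

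BGLU14, BGLU16 and BGLU18, a row of neighbours on chromosome 4, hydrolyse glucosides of monolignols, the building blocks of lignin, and each had another pattern. BGLU18 read 0.776, 0.547 and 0.404 in Apo and 0.576, 0.154 and 0.0571 in IR64. Replicate 1 was the highest array and replicate 3 the lowest in each genotype, and the genotypes overlapped. Its Apo mean was 0.576 ± 0.188 (SE 0.11, limma adjusted p = 0.00531), a ratio of 3.77 if the base is 10. Its IR64 mean of 0.262 ± 0.276 did not pass (0.099), but it did in the blocked fit (0.00759), and without IR64 replicate 1 it was 0.106.

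BGLU14 was positive in IR64, at 0.129, 0.191 and 0.315, and lay at -0.149, 0.0141 and 0.009 in Apo, below every IR64 array. The means were 0.212 ± 0.0951 (limma adjusted p = 0.0152) and -0.0419 ± 0.0926, and the IR64 call ended without IR64 replicate 2 (0.06) or 3 (0.0837). The first BGLU16 probe was negative in IR64, at -0.332, -0.226 and -0.217, and near 0 in Apo, at 0.088, -0.0191 and -0.0106. The genotypes did not overlap there, with means of -0.258 ± 0.0638 (0.00235) and 0.0194 ± 0.0595. The second BGLU16 probe passed in neither genotype, at 0.0752 ± 0.116 in Apo and -0.0378 ± 0.0319 in IR64, although Apo passed without Apo replicate 3 (0.0494).

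BGLU36 is the rice SFR2, whose Arabidopsis counterpart remodels galactolipids of the chloroplast envelope in freezing. It read -0.000624, 0.0415 and 0.0428 in Apo and 0.0495, -0.265 and -0.263 in IR64, so IR64 replicate 1 lay with the Apo arrays and the other IR64 arrays apart from them. Its IR64 mean of -0.16 ± 0.181 did not pass (limma adjusted p = 0.0882), and without IR64 replicate 1 it was -0.264 and passed (0.00131). BGLU38, needed in rice for the inner pollen wall, was at -0.101 ± 0.0899 in Apo and -0.0654 ± 0.0945 in IR64, neither past the threshold, and it passed in Apo with the replicate block (0.0445).

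The other 12 genes are given without a role. BGLU30 had the largest positive ratio of the family in Apo, with 0.752, 1.1 and 0.764 on the Apo arrays and 0.335, 0.644 and 0.486 on those of IR64. Every Apo array lay above every IR64 array. The means were 0.872 ± 0.198 (SE 0.0844, limma adjusted p = 0.000319) and 0.488 ± 0.154 (0.00448), ratios of 7.45 and 3.08 if the base is 10.

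BGLU32 followed at 0.622, 0.545 and 0.407 in Apo and 0.356, 0.341 and 0.232 in IR64, again without overlap. Its means were 0.525 ± 0.109 (SE 0.0486, limma adjusted p = 0.000272) and 0.309 ± 0.0676 (0.00303). Both BGLU1 probes were positive, the first at 0.227, 0.576 and 0.449 in Apo and 0.184, 0.380 and 0.203 in IR64, and the second at 0.345, 0.502 and 0.532 and 0.392, 0.279 and 0.0261. Genotypes overlapped on both BGLU1 probes, with means of 0.417 ± 0.177 and 0.46 ± 0.101 in Apo (0.00332 and 0.00242) and 0.256 ± 0.108 and 0.232 ± 0.187 in IR64 (0.0279 and 0.0414).

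The Apo calls of BGLU1 held without any 1 array. In IR64 its first probe lost the call without Apo replicate 3 (limma adjusted p = 0.0511), IR64 replicate 1 (0.05), 2 (0.148) or 3 (0.0761). Its second probe lost the IR64 call without Apo replicate 1 (0.0571), 2 (0.0634) or 3 (0.0648), without IR64 replicate 1, where the mean fell to 0.152 (0.157), or 2 (0.169), and with the replicate block (0.0793), all spots in the fit (0.0645) or each genotype fitted alone (0.111). BGLU5 was positive at 0.0809, 0.257 and 0.195 in Apo and 0.171, 0.310 and 0.279 in IR64, with overlap. Its means were 0.178 ± 0.0893 (0.0168) and 0.253 ± 0.073 (0.00509), and the Apo call ended without Apo replicate 2 (0.0913) or 3 (0.0834).

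On the negative side the 2 probes of BGLU28 agreed closely. The first read -0.729, -0.645 and -0.444 in Apo and -0.531, -0.365 and -0.248 in IR64, and the second -0.613, -0.595 and -0.440 and -0.523, -0.369 and -0.225. Replicate 1 was the most negative array and replicate 3 the least in each genotype, and the genotypes overlapped. Apo means were -0.606 ± 0.146 and -0.549 ± 0.0952 (SE 0.0703 and 0.0623, limma adjusted p = 0.000653 and 0.000597), and IR64 means -0.381 ± 0.142 and -0.372 ± 0.149 (0.00586 and 0.00395). BGLU19 was at -0.552, -0.392 and -0.421 in Apo and -0.285, -0.387 and -0.318 in IR64, every IR64 array lying nearer to 0. Its means were -0.455 ± 0.085 (0.000246) and -0.33 ± 0.0519 (0.00118).

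The first BGLU3 probe was negative in IR64, with -0.150, -0.234 and -0.115 there and -0.0135, -0.134 and -0.064 in Apo, where the groups overlapped. It passed in IR64 at -0.166 ± 0.0615 (limma adjusted p = 0.0135), not without IR64 replicate 2 (0.0772), and stood at -0.0705 ± 0.0605 in Apo. Its second probe was at -0.183, -0.22 and -0.0413 in Apo and 0.0133, 0.140 and 0.226 in IR64, of opposite sign on all arrays. Neither mean of the second probe passed, at -0.148 ± 0.0943 (0.0546) and 0.127 ± 0.107 (0.0967), but both did with the replicate block (0.0218 and 0.0378) and without IR64 replicate 1 (0.0317 and 0.0368), and Apo also without Apo replicate 3 (0.047) and with a trended, robust variance prior (0.0482).

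BGLU9, BGLU22, BGLU25, BGLU27 and BGLU34 passed in neither genotype, with means between -0.124 and 0.221 in Apo and between -0.102 and 0.0653 in IR64. BGLU9 in IR64 ran from -0.14 to 0.351, the highest value being that of replicate 1, and its mean turned from 0.0653 to -0.0774 without that array. BGLU34 in Apo ran from -0.0771 to 0.595. BGLU22 read 0.136, -0.234 and -0.207 in IR64, a mean of -0.102 ± 0.206, which became -0.221 and passed (limma adjusted p = 0.0384) without replicate 1; in Apo it stood at 0.114 ± 0.131 and passed with the replicate block (0.0398).

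Of the 31 calls in both genotypes together, 16 in Apo and 15 in IR64, 12 and 9 held under every other fit of the probes that was run, and 10 and 7 of these were also at least 2-fold if the base is 10. Those that met both in each genotype were BGLU19, BGLU26, both probes of BGLU28, BGLU30, the first probe of BGLU31 and BGLU32. In Apo both BGLU1 probes and BGLU18 met both as well. The first probes of BGLU12 and BGLU13 in Apo, and BGLU5 and the first BGLU16 probe in IR64, held in the fits with ratios of 1.79 to 1.84 if the base is 10.

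The second question was how alike the genotypes were. Across the 35 probes the mean ratios of Apo and IR64 had a Pearson correlation of 0.872, against 0.829 over all tested probes; probes share arrays and dyes and are not independent replicates. Of the members 11 passed in both genotypes with the same sign, which is 31.4% against 30.8% of all probes, and none passed with opposite signs, against 0.558%. Another 5 passed in Apo and not in IR64 (14.3% against 18.8%) and 4 in IR64 and not in Apo (11.4% against 11.6%). These are the third probe of BGLU10, the first probes of BGLU12 and BGLU13, BGLU8 and BGLU18 for Apo, and the first probes of BGLU3 and BGLU16, the second of BGLU13, and BGLU14 for IR64.

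**Figure D2:**
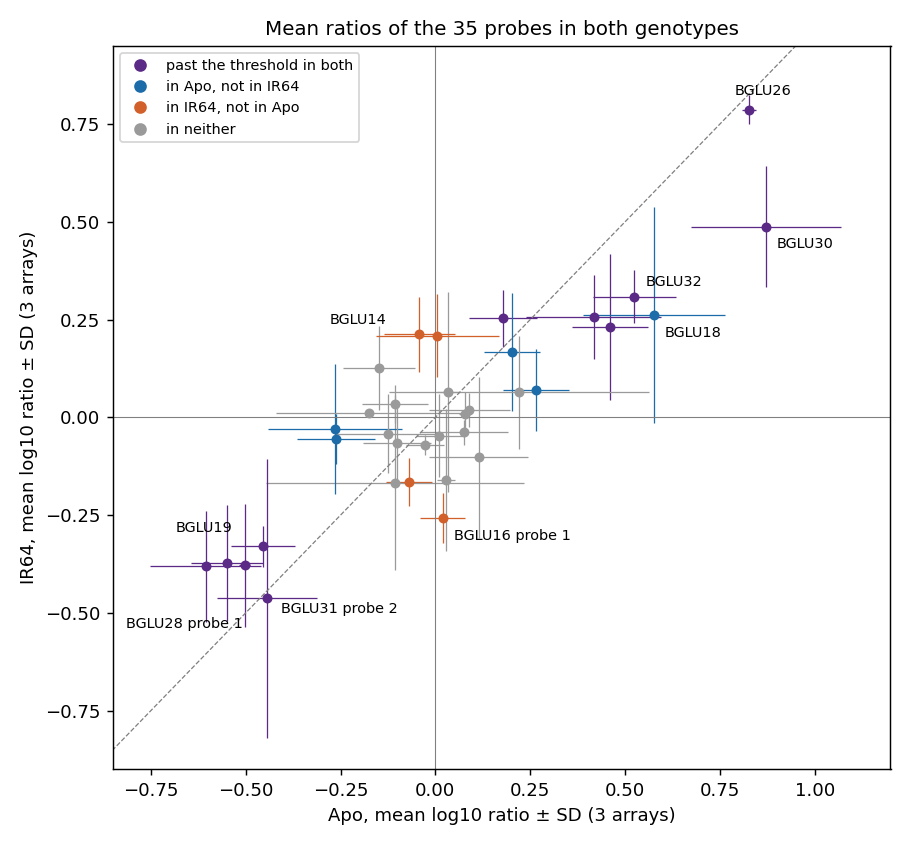
Mean log10 ratio in Apo (horizontal) against IR64 (vertical) for the 35 probes, with bars of 1 SD over 3 arrays and a dashed line of equal ratios; colours give where a probe passed the threshold. The 11 probes that passed in both genotypes lie in the lower left and upper right of the plot, and BGLU30 lies below the dashed line, at 0.872 in Apo against 0.488 in IR64.

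The difference between the genotypes was then tested itself. With limma on 6 arrays, 0 of the 35 probes passed at the adjusted threshold, against 2.02% of all probes. At an unadjusted p under 0.05, 8 did, which is 22.9% against 27.3% of all probes. These were BGLU7, BGLU14, BGLU30, BGLU32, the second probe of BGLU3 and the first probes of BGLU12, BGLU13 and BGLU16. The arrays of the genotypes did not overlap for 10 probes, or 28.6%, against 34.5% of all probes.

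The smallest adjusted p was that of the first BGLU16 probe, with a difference of 0.278 (95% interval 0.148 to 0.407, limma adjusted p = 0.0576). It was followed by the second BGLU3 probe at -0.275 (-0.453 to -0.0962, 0.0954) and BGLU14 at -0.254 (-0.423 to -0.0844, 0.0993). BGLU30 had the largest difference, 0.383 (0.0969 to 0.67, 0.115), then BGLU18 at 0.313 (-0.06 to 0.687, 0.24). BGLU32, at 0.215 (0.05 to 0.38, 0.119), was of middling size. The differences of BGLU28 were -0.225 (-0.464 to 0.0139) and -0.177 (-0.388 to 0.0349) for its first and second probe, and those of BGLU31 were -0.125 (-0.318 to 0.0677) and 0.0191 (-0.405 to 0.443). Blocked by replicate number, BGLU30 (0.0432) and the third BGLU10 probe (-0.234, 0.0462) passed, or 2 of 35, 5.71% against 5.36% of all probes. That fit called 20 members in Apo (57.1% against 55.3% of all probes) and 18 in IR64 (51.4% against 48.7%). With quantile normalization the first BGLU16 probe passed (0.0461), 2.86% of members against 1.41% of all probes.

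Without IR64 replicate 1, 18 members passed in Apo (51.4% against 57.4% of all probes) and 16 in IR64 (45.7% against 47.7%). The difference then passed for 6 probes, 17.1% of members against 33.6% of all probes. BGLU36 had a difference of 0.292 there (limma adjusted p = 0.00572), the first BGLU16 probe 0.241 (0.0169), BGLU22 0.334 (0.0329) and BGLU18 0.47 (0.0338), all more positive in Apo. The second BGLU3 probe stood at -0.331 (0.0201) and BGLU14 at -0.295 (0.0317), more positive in IR64. For BGLU30 the difference without that array was 0.307 and for BGLU32 0.238, neither past the threshold. This array was singled out from these same values for its likeness to the Apo arrays. Leaving it out can by itself widen the difference and narrow the spread, so these calls are no separate support for a difference. The part of this array in the results was not tested beyond leaving it out.

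**Figure D3:**
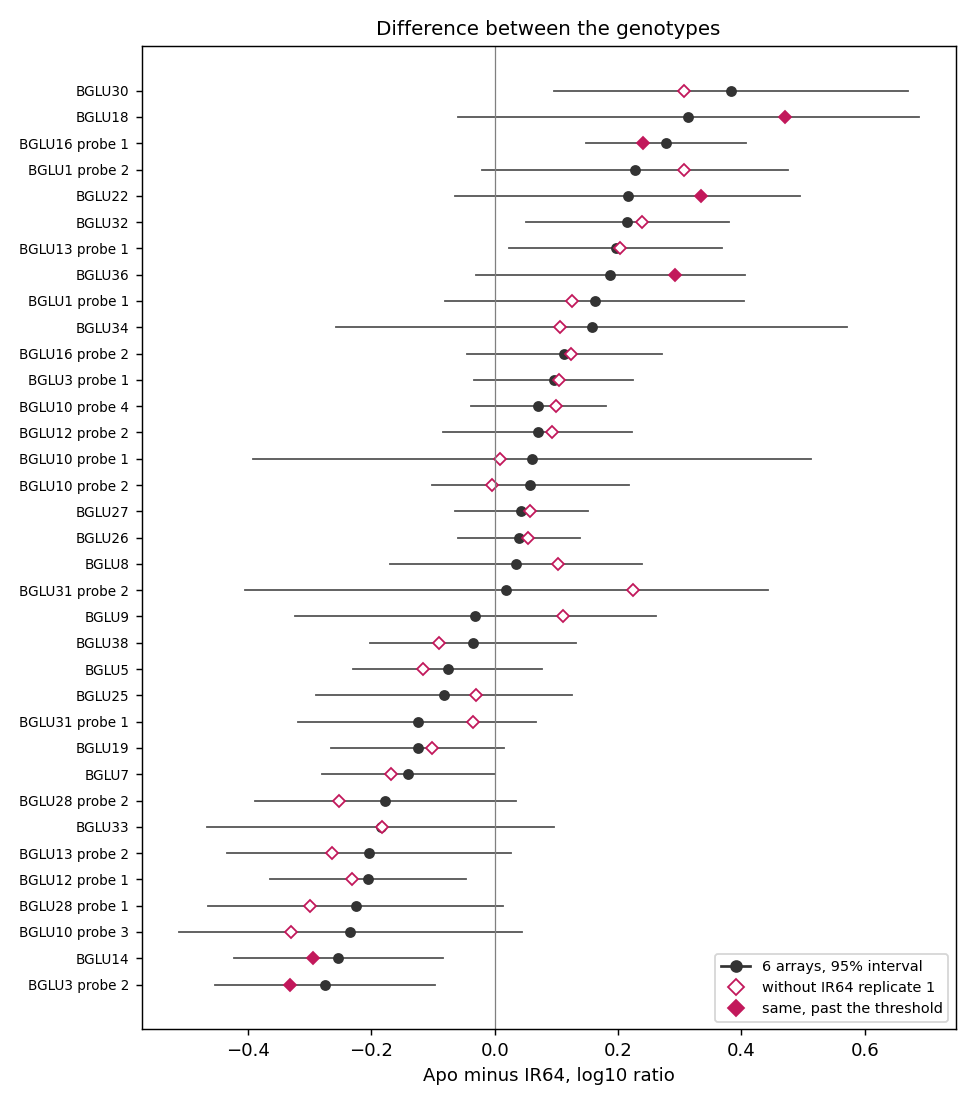
Difference Apo minus IR64 in log10 ratio for the 35 probes, as a dot with its 95% interval from all 6 arrays and as a diamond without IR64 replicate 1, filled where it passed the threshold. Filled diamonds mark 6 probes, and BGLU18 moves from 0.313 to 0.47 when the array is left out.

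Genes of this family lie in rows along the chromosomes, and 16 of the 25 measured genes fall into 6 such rows with at most 3 other genes listed between neighbours. Members of a row could differ in sign. On chromosome 9 BGLU31, BGLU32 and BGLU33 follow each other with no other gene listed between them. BGLU31 was negative on all 6 arrays on both probes, BGLU32 was positive on all 6, and BGLU33 passed in neither genotype. On chromosome 8 BGLU27 stood at -0.0267 ± 0.0506 in Apo and -0.0696 ± 0.0256 in IR64, beside BGLU28 with both probes negative. BGLU19 and BGLU22 of chromosome 5, with the unmeasured BGLU20 and BGLU21 between them, were negative past the threshold and not past it, respectively.

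**Figure D4:**
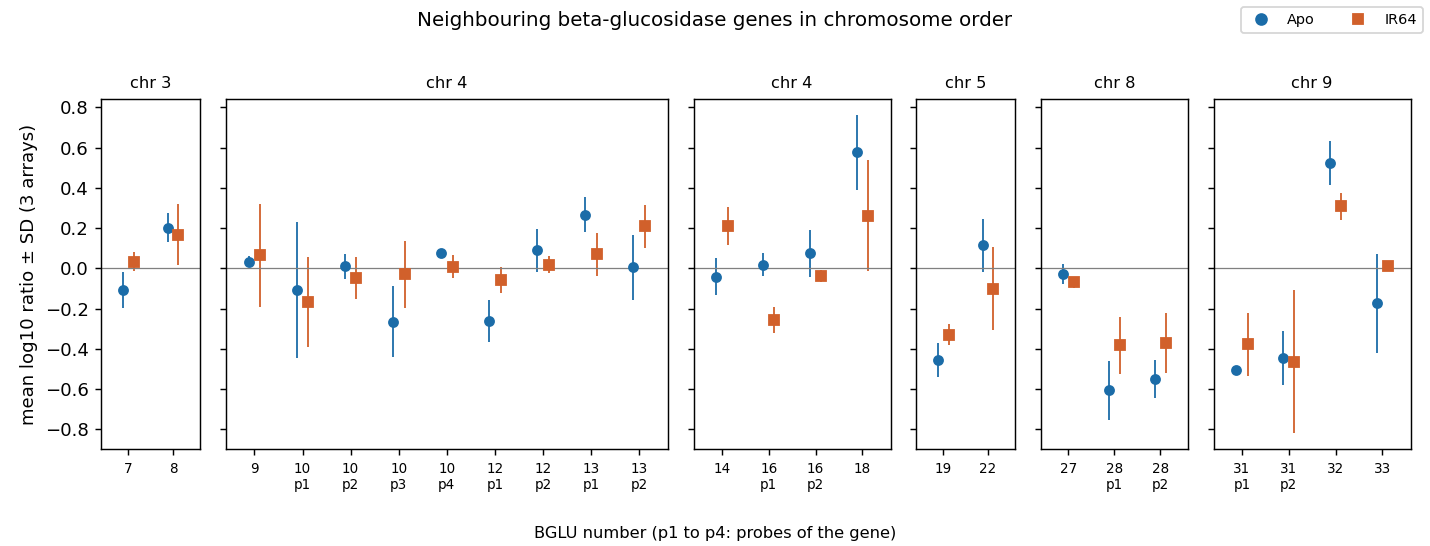
Mean log10 ratio with bars of 1 SD over 3 arrays for the 6 rows of neighbouring genes, each panel a row in chromosome order, with Apo as circles and IR64 as squares. On chromosome 9 BGLU31 lies below 0 and its neighbour BGLU32 above 0 in both genotypes.

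Probes of 1 gene share their target and were kept apart. The gap between the highest and lowest mean among the probes of a gene had a median of 0.0684 in Apo and 0.113 in IR64 over the 8 genes with several probes, against 0.148 and 0.144 over all 1832 such genes of the array. BGLU1, BGLU28 and BGLU31 had gaps of 0.0426, 0.057 and 0.0593 in Apo, while BGLU10, BGLU12 and BGLU13 had 0.343, 0.35 and 0.261. In IR64 the widest gaps were those of BGLU3, 0.293, and BGLU16, 0.22. When probes were averaged per gene before the fit, 12 of 25 genes passed in Apo (48% against 51.3% of all genes) and 11 in IR64 (44% against 43.9%). For the difference 0 of 25 passed by limma, against 2.18% of all genes. BGLU10 in Apo and BGLU3 in IR64, each with 1 called probe, did not pass when averaged. Their means were -0.0702 (limma adjusted p = 0.313) and -0.0199 (0.708). BGLU12 in Apo, at -0.0858 (0.0426), and BGLU16 in IR64, at -0.148 (0.0154), also had 1 called probe each and passed, as BGLU13 did. No probe sequence was used here, so whether a probe also reads a neighbouring member is unknown.

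Other genes of the pathways that make or use the compounds freed by these enzymes were taken from lists of names. Of 16 probes for monolignol synthesis 5 were positive and 8 negative in Apo, and 3 and 3 in IR64, with medians of -0.165 and -0.00238. These were 81.2% called in Apo against 50.1% of all probes and 37.5% in IR64 against 43%. CAD6, a cinnamyl alcohol dehydrogenase, averaged -1.33 ± 0.0324 in Apo and -0.635 ± 0.163 in IR64, and CAD3 averaged -0.422 ± 0.126 and -0.494 ± 0.0874. The ligase 4CL-3 was positive, at 0.256 ± 0.0404 and 0.351 ± 0.028. With the replicate block 10 of the 16 passed in IR64 instead of 6, in a fit that called 48.7% of all probes there.

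Jasmonate synthesis had 6 negative and no positive probe of 17 in Apo and 5 and none in IR64, with medians of -0.0425 and -0.107. The called shares were 35.3% and 29.4%, below the same 50.1% and 43% of all probes. Allene oxide synthase, AOS, was at -0.824 ± 0.0311 in Apo and -0.451 ± 0.0404 in IR64, and OPR10, of the oxophytodienoate reductase family, at -0.708 ± 0.0277 and -0.44 ± 0.0686. GH3.5, which conjugates jasmonate to amino acids, was at -0.807 ± 0.0282 and -0.435 ± 0.178. BGLU12, which frees a product of this pathway, was negative past the threshold in Apo on 1 of its 2 probes. BGLU13, given the same role above, was positive past it, on its first probe in Apo and on its second in IR64.

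Genes of cytokinin metabolism had 5 negative and no positive probe of 15 in Apo, and 5 negative and 1 positive in IR64. With all arrays that is 33.3% and 40% called, against 50.1% and 43% of all probes. Without IR64 replicate 1, 10 of the 15 were called in IR64, in a fit that called 47.7% of all probes there. LOG, which activates cytokinins, was at -0.421 ± 0.0374 in Apo and -0.569 ± 0.0321 in IR64. Its relative LOGL3 had means of -0.703 ± 0.078 and -0.417 ± 0.18, and LOGL7 of -0.157 ± 0.019 and -0.267 ± 0.00924. For abscisic acid 2 probes were found. ABA8OX1, a hydroxylase that breaks the hormone down, was at 0.378 ± 0.0857 in Apo (limma adjusted p = 0.00163) and -0.00842 ± 0.123 in IR64. A gene named aba1 joined the list by its name alone, and a role in synthesis was not checked. It was at 0.214 ± 0.127 in Apo (0.0362) and at 0.0584 ± 0.146 in IR64. The Apo call of aba1 ended without Apo replicate 1 (0.101), 2 (0.176) or 3 (0.0518). It also ended without IR64 replicate 2 (0.0556) or with all spots in the fit (0.0564).

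Other glycosidases of cell walls and sucrose had 5 positive and 2 negative probes of 14 in Apo and 3 and 1 in IR64, or 50% and 28.6% called against 50.1% and 43% of all probes. CIN4, a cell wall invertase, stood at -0.309 ± 0.0401 in Apo and -0.201 ± 0.0498 in IR64. The endoglucanase GLU1 was at 0.262 ± 0.067 and 0.234 ± 0.117, and its relative GLU2 at -0.772 ± 0.239 in Apo, while its IR64 mean of -0.312 ± 0.234 did not pass (limma adjusted p = 0.0608). That mean passed without Apo replicate 1 (0.0441), with the replicate block (0.00185), with quantile normalization (0.0261) and with equal scale over arrays (0.0376). Leaving out IR64 replicate 2 ended the IR64 call of GLU1 (0.0589), as did fitting each genotype alone (0.0502). Without IR64 replicate 2, 1 probe of the list was called in IR64, where 28.6% of all probes were. Without IR64 replicate 3, 2 were called in IR64, where 29.7% of all probes were. Without Apo replicate 2, 4 were called in Apo, where 38.1% of all probes were.

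Markers of other tissues were few on the array. Of the root markers IRT1 was negative at -0.864 ± 0.04 in Apo and -0.627 ± 0.119 in IR64, and Lsi1 passed in neither. The secondary wall gene CESA4 was at 0.095 ± 0.29 in Apo and 0.782 ± 0.138 in IR64, and CESA7 at 0.181 ± 0.0819 and 0.14 ± 0.147. CESA7 alone of the pair passed in Apo, and no longer without Apo replicate 2, Apo replicate 3 or IR64 replicate 1, with quantile normalization or with all spots in the fit. CESA4 alone passed in IR64, and both did with the replicate block. Of the 2 anther and 2 seed storage probes 0 passed in either genotype with all arrays, and 1 seed storage probe passed in Apo without Apo replicate 1 or with the block. The part of such tissues in the beta-glucosidase ratios was not tested.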

How the data were processed

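The deposited value table holds 1 within-array log ratio per spot and array, taken as log10. Per the submitters' processing notes the software was Agilent Feature Extraction, version 8.1. For the numerator, dye normalization, background correction and centring, no statement was found in the sources used here. Ratios were used as deposited. A gene was annotated for 17860 of 22575 spots; 17839 had 1 gene, all found in the gene table of assembly ASM3414082v1, used for names and gene order. Leaving out spots at 0 on all arrays, 17727 probes were tested with limma 3.58.1 in R 4.3.3 (lmFit, eBayes, 1 mean per genotype, Benjamini-Hochberg over all tested probes, threshold 0.05), a fit also tested on simulated data. In the reported fit the arrays of both genotypes share an estimate of each probe's spread. Each SE and p-value therefore rests on both genotypes, while each SD is that of 1 genotype. Python 3.11.15, pandas 2.3.3 and matplotlib 3.10.9 were used.

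Arrays with the same replicate number deviated together: their deviations from the 2 genotype averages had correlations of 0.322, 0.261 and 0.34. Deviations cancel within a genotype, so these values are not independent of each other. A pairing of arrays by number is therefore possible, but the labels do not state it. The reported fit was fixed without the block, and the blocked fit is an alternative, given where it changes a call. Members and lists were chosen with earlier results of these data known. By the rule for named genes, each called member has its array values and the 8 probes with the largest mean in either genotype have an SE and the interval of their difference; array values of some uncalled members were added after their values were seen. Beside the dehydrins and tissue markers, lists name at most 3 probes of smallest p. Protein and promoter comparisons had been planned and were not run, since no sequence was used here. Alternatives covered centring, scale, quantile normalization, spots fitted, separate fits, the block, the variance prior, a minimum fold, probe averaging and each array left out.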

Additional observations from a re-analysis of the deposited data

Results flagged for a closer look

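The second probe of BGLU3 was negative on all 3 Apo arrays and positive on all 3 IR64 arrays. Its difference, Apo minus IR64, was -0.275, which limma's test did not call (adjusted p = 0.0954), and the first BGLU3 probe differed the other way, by 0.0959. Groups of 3 arrays were not tested for single outlying arrays.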

How the results depend on the processing

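The number of called members stayed within 1.5 times the main number under each alternative, apart from these. With a minimum of 2-fold 8 members passed in IR64 instead of 15. For the difference, 0 became 1 with quantile normalization, 2 with the replicate block and 6 without IR64 replicate 1. Over the fits that leave out 1 array the count ran from 12 to 18 in Apo, from 10 to 16 in IR64 and from 0 to 6 for the difference. In the same fits 37.5% to 57.4% of all probes were called in Apo, 28.6% to 47.7% in IR64 and 0% to 33.6% for the difference. The median member ratio ran from -0.00178 to 0.0204 in Apo and from -0.0189 to 0.00819 in IR64, the lowest without Apo replicate 2 and without IR64 replicate 3 respectively. No called member changed sign under any alternative. The replicate block gave 20 called members in Apo and 18 in IR64, and besides the member calls named with it above it changed no other. Equal median absolute values and centring changed no member's call in either genotype or for the difference. Where an array was left out, its genotype was left with 2 arrays. Because both genotypes share an estimate of the spread, the p-values of the other genotype could move with its means unchanged. Beyond fewer samples and this shared spread, the cause of the changed calls was not tested. Probe brightness was not available here, so dim members cannot be told from unresponsive ones.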
